A study of Homo sapiens with 6 samples.

Results

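RBFOX2-INSCRIBE and its enzyme-only control were compared gene by gene in HEK293T cells, to find which genes, functional classes and transcript regions carried more or fewer C-to-U edits than the library-wide rise in editing alone gives. All entries of the 4 libraries were used, each entry being an edited position of one isoform with the fraction of reads edited there. These were 681439 of the 839700 entries in the 6 libraries of the series. The RBFOX2-INSCRIBE libraries held 211369 and 216646 entries, and the enzyme-only libraries held 91265 and 162159. Transcript identifiers of GENCODE release 44 assigned the entries to genes, and a position edited in several isoforms of a gene was counted as 1 site. This left 207733 and 212729 sites in the RBFOX2-INSCRIBE libraries, replicates 1 and 2, against 90610 and 160210 in enzyme-only replicates 2 and 3.

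HEK293T is an immortalized line derived from human embryonic kidney, and the labels give the line as HEK293XT. Cells were fixed with methanol on slides. In RBFOX2-INSCRIBE they received a rabbit antibody against RBFOX2 and then Apo1-Nb, a purified fusion of the cytidine deaminase APOBEC1 with a nanobody that binds rabbit IgG. The enzyme-only cells received Apo1-Nb without the antibody, and the buffer-only cells received neither. Each group had 2 libraries, made from separate slides of one cell line and read as full-length cDNA on 1 SMRT Cell each. No label says that they came from separate cultures, so p-values measure the spread between these libraries, which may be technical. The titles number the enzyme-only libraries 2 and 3 and a separate field numbers them 1 and 2; the titles are followed here.

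RBFOX2 is a nuclear RNA-binding protein that recognises the hexamer UGCAUG, most often in introns and in the 3′ untranslated region (UTR). It is best known for setting the inclusion of alternative exons according to the side of the exon it binds, and it also binds mature 3′ UTRs. APOBEC1 deaminates cytosines of single-stranded RNA and prefers a cytosine preceded by A or U. An edit brought about by an RBFOX2-bound enzyme is therefore looked for beside a UGCAUG and after an A or a U.

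8 windows around UGCAUG from the genes described below show what the editing looked like at single hexamers. They were taken among 89 occurrences in 33 named genes. Of these occurrences, 47 had at least 1 site within 50 nt that was edited in both RBFOX2-INSCRIBE libraries. Sites are counted here without scaling to library totals. In such counts 7 of the windows showed a wide gap between the groups and EIF4A1 showed little. Capitals mark the hexamer, written as DNA (TGCATG), within 30 bases of the transcript strand from GENCODE release 44.
TSC22D2: tctagcatgatcTGCATGacctataatctt
PPM1B: ttacaaattttaTGCATGtatctactgcat
PAWR: cgatctatatagTGCATGtcagtagcacaa
STMP1: gtctatttagtgTGCATGtttttccttaat
UBE2K: tgtgaatttactTGCATGcttgtacttgac
ZWILCH: atattagtcagtTGCATGcctttcattaaa
SLC25A46: tacagtacacacTGCATGcagctgttttac
EIF4A1: tcaccgagaagaTGCATGctcgagatttca

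The TSC22D2 window lies in the 3′ UTR (hg38, chr3:150459663-150459692, plus strand). Within 50 nt of its hexamer 17 and 16 sites were edited in the RBFOX2-INSCRIBE libraries, 14 of them in both, against 2 and 1 in the enzyme-only libraries. The PPM1B window is also in the 3′ UTR (chr2:44232976-44233005, plus strand), with 14 and 12 sites against 0 and 1. The PAWR window (3′ UTR, chr12:79588604-79588633, minus strand) had 11 and 11 sites against 0 and 5, and is 1 of 3 windows of that UTR among the 15 occurrences with the most shared sites. In STMP1 (3′ UTR, chr7:135674809-135674838, plus strand) the numbers were 11 and 10 against 1 and 2, and in UBE2K (3′ UTR, chr4:39778866-39778895, plus strand) they were 9 and 8 against 1 and 3. The windows of ZWILCH (chr15:66536008-66536037, plus strand) and SLC25A46 (chr5:110761706-110761735, plus strand) lie in coding sequence. ZWILCH had 14 and 10 sites against 0 and 4, and SLC25A46 had 11 and 9 against 0 and 0. The coding window of EIF4A1 (chr17:7577663-7577692, plus strand) was edited in every library, at 9 and 9 sites against 7 and 8. The windows were picked among the 15 occurrences with the most shared sites, and among these for their gap between the groups. Others of the 15 were left out, such as YWHAE at 20 and 11 sites against 8 and 11 and TARDBP at 12 and 12 against 1 and 5. These counts are therefore a description and were not tested. They were not scaled and the enzyme-only libraries held fewer sites in all, so the counts also carry the difference in library totals.

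The number of reads at a site is not part of the deposited values, so the depth of a gene in a library is unknown, and fewer reads and fewer edits per read cannot be told apart. Bases were read only for sites in exons on the strand of their gene, and all of these were at reference cytosines. Opposite-strand sites, 6812 and 6642 in RBFOX2-INSCRIBE and 4421 and 6215 in enzyme-only, were counted in the gene totals with their base unchecked. The libraries also differed in kind. Sites preceded by A made up 40.2% and 41.1% in RBFOX2-INSCRIBE, 33.2% and 37.9% in enzyme-only and 19.0% and 19.6% in buffer-only, and sites preceded by G made up 17.3% and 16.5%, 24.5% and 20.1%, and 36.8% and 36.5%. Enzyme-only replicate 2 thus lay nearer to buffer-only than replicate 3 did, and results are given against each of them. Of the HEK293 markers, NEFM had 29 and 24 edited sites in RBFOX2-INSCRIBE and 7 and 22 in enzyme-only. KRT18 had 6 and 5 against 8 and 6, and VIM had 8 and 2 against 0 and 8. KRT8, PAX2, LHX1 and NES had 0 in all 6 libraries. All 10 markers of other cell types, among them PTPRC, ALB, GFAP and PECAM1, had 0 sites in every library. RBFOX2 itself had 0 and 1 sites in RBFOX2-INSCRIBE and 0 and 1 in enzyme-only, too few to be tested.

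The library-wide rise came first. Without scaling, 85.1% of 5190 genes had more sites in RBFOX2-INSCRIBE, with a median log2 difference of 0.83, and in 2657 genes (51.2%) the lower RBFOX2-INSCRIBE value lay above the higher enzyme-only value. In limma 36 genes (0.694%) rose past a Benjamini-Hochberg adjusted p of 0.05 and 0 fell, although 17 were lower at an unadjusted p under 0.05. With enzyme-only replicate 3 as the one control 142 genes passed, and with replicate 2 it was 2469, of which 2421 rose.

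Scaling each library to the mean total of the 4 removed that rise, and the median log2 difference over the 5220 genes with a mean of at least 5 scaled sites was then 0.02. No gene passed an adjusted p of 0.05 in limma (0% in either direction). At an unadjusted p under 0.05, 247 genes (4.73%) were higher and 229 (4.39%) lower, and the groups did not overlap in 1138 genes (21.8%) that were higher and 1065 (20.4%) that were lower. Against enzyme-only replicate 3 alone, 39 genes rose and 3 fell, and against replicate 2 alone 313 rose and 174 fell, with the lone control assumed to vary as the RBFOX2-INSCRIBE libraries did. The 18 genes that passed against each control made up 42.9% of the 42 and 3.70% of the 487; both counts rested on the same RBFOX2-INSCRIBE libraries. Of the 18, 17 rose, among them SEH1L, PPM1B, ZWILCH, STARD4, GPC4, TSC22D2, STMP1, GPM6B and KLHL11, and MARCKSL1 fell.

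Because no gene passed the test against both controls together, the genes described next are the 10 in each direction with the smallest unadjusted limma p among genes whose groups did not overlap. Their adjusted p was 0.506 in limma, except for NR2C2 at 0.189.

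The 10 genes with more scaled sites included a nucleoporin, a kinetochore protein and a phosphatase. SEH1L, a scaffold nucleoporin, had 67.9 and 99.4 scaled sites in RBFOX2-INSCRIBE and 27.8 and 28.3 in enzyme-only, a log2 difference of 1.53 ± 0.32 (SE, n = 2 libraries per group, limma). ZWILCH, a subunit of the kinetochore complex that recruits dynein, had 77.6 and 89.9 against 38.9 and 36.7, a log2 difference of 1.135 ± 0.28. PPM1B, a serine/threonine phosphatase of the PP2C family, had 104 and 113 against 44.5 and 58.7, a log2 difference of 1.08 ± 0.26. In these 3 genes the controls lay together and well under both RBFOX2-INSCRIBE libraries.

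TSC22D2, of the leucine zipper family named after TSC22, had 60.6 and 76.5 scaled sites against 20.4 and 29.3, a log2 difference of 1.46 ± 0.35. PAWR, a pro-apoptotic regulator that binds WT1, had the most sites of the 10, with 172 and 196 against 88.9 and 119 and a log2 difference of 0.83 ± 0.21. KLHL11, a kelch-like adaptor of a cullin ubiquitin ligase, had 33.9 and 29.2 against 3.70 and 6.29 (2 and 6 sites before scaling), a log2 difference of 2.58 ± 0.60, but buffer-only had 23.3 and 6.47. Among the 9 genes with a site in each of the 4 libraries, the log2 difference ran from that of PAWR to that of KLHL11.

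STARD4, a cholesterol transfer protein, had 62.2 and 46.5 scaled sites against 12.96 and 19.9, a log2 difference of 1.71 ± 0.41. GPM6B, a membrane glycoprotein of the proteolipid family, had 29.1 and 29.98 against 5.56 and 4.19, a log2 difference of 2.49 ± 0.60. STMP1, a short transmembrane protein of mitochondria, had 59.0 and 58.4 against 20.4 and 21.0, a log2 difference of 1.48 ± 0.35. NR2C2, an orphan nuclear receptor, had 58.2 and 67.8 and was listed at 0 in both enzyme-only libraries, while buffer-only had 74.1 and 54.0, so no fold is given for it. In all, 10 genes with a scaled median of at least 25 sites were at 0 in at least 1 of the 6 libraries, 7 of them in enzyme-only replicate 2, 3 in each RBFOX2-INSCRIBE library and 1 in enzyme-only replicate 3, so a 0 of this kind was not particular to the control.

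The 10 genes with fewer scaled sites included 2 ribosomal proteins, an enzyme of glycolysis and a subunit of ATP synthase. RPS7, a protein of the small ribosomal subunit, had 3.23 and 3.94 scaled sites in RBFOX2-INSCRIBE and 27.8 and 27.2 in enzyme-only, a log2 difference of -2.78 ± 0.64 in limma; buffer-only, at 6.36 and 6.47, was near RBFOX2-INSCRIBE. RPSA, of the same subunit, had 4.04 and 10.3 against 90.8 and 21.0 (-2.66 ± 0.71). In all of the 10 lower genes except RPS7, both buffer-only values lay above both RBFOX2-INSCRIBE values, as in RPSA at 19.1 and 41.0. MARCKSL1, an actin-linked membrane protein, had 66.2 and 73.4 against 261 and 134, with 199 and 242 in buffer-only, and a log2 difference of -1.42 ± 0.29. It was the one gene with fewer sites that passed an adjusted p of 0.05 in limma against each control alone.

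PTMA, the acidic nuclear protein prothymosin alpha, had 53.3 and 44.2 scaled sites against 191 and 83.8, a log2 difference of -1.37 ± 0.35. ALDOA, an enzyme of glycolysis, had 32.3 and 17.4 against 102 and 49.2 (-1.56 ± 0.43), and ATP5F1B, the catalytic subunit of mitochondrial ATP synthase, had 95.3 and 61.5 against 169 and 129 (-0.94 ± 0.26). In all 3 the enzyme-only libraries differed from each other, replicate 2 being the higher. LSM4 (a protein of the U6 snRNP), NUDC (a dynein-linked chaperone), TMED9 (a cargo receptor of the early secretory pathway) and BRIX1 (a factor of large-subunit assembly) had log2 differences of -1.91 ± 0.50, -1.97 ± 0.52, -1.45 ± 0.37 and -1.38 ± 0.35. In these 4 genes too the difference was wider against enzyme-only replicate 2, at -2.67, -2.59, -1.98 and -1.62, than against replicate 3, at -1.15, -1.35, -0.91 and -1.14. Reads of ribosomal protein genes and of PTMA can match processed copies elsewhere in the genome, so their site numbers may be less certain. Whether this affected these or other named genes was not tested.

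**Figure D1:**
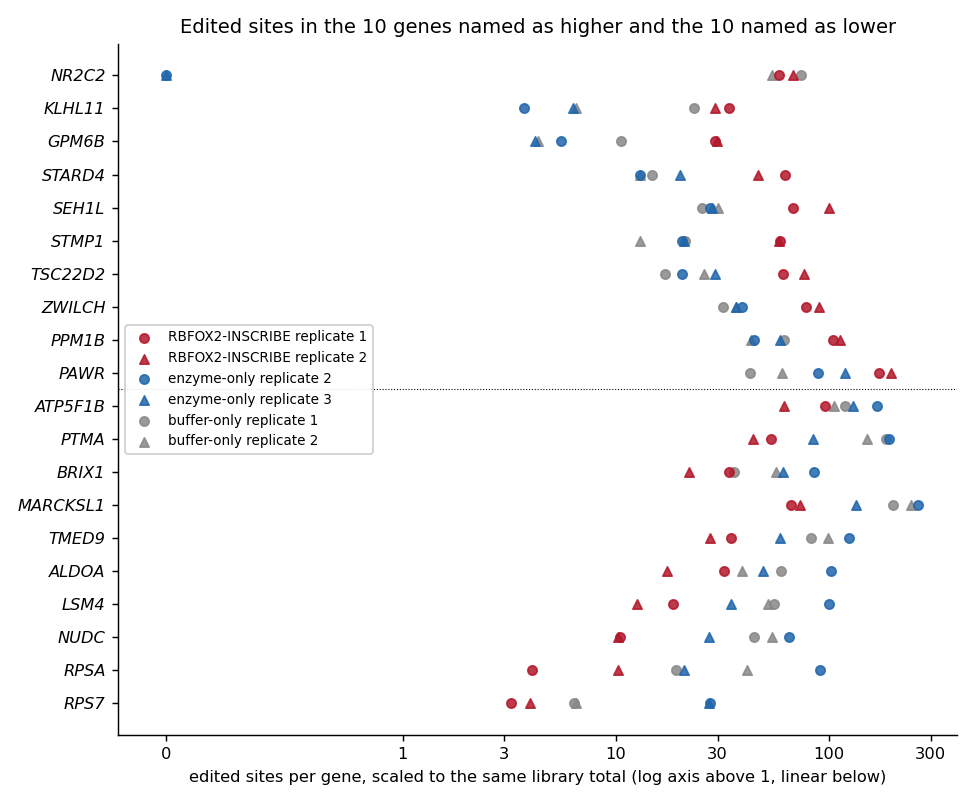
Edited sites per gene, scaled to the same library total, for the 10 genes named as higher (above the dotted line) and the 10 named as lower (below), with 1 point per library; the axis is logarithmic above 1 and linear below. Red points lie right of all blue points in the upper genes and left of them in the lower genes, as the choice of genes requires, and grey buffer-only points of MARCKSL1 (199 and 242) lie among the enzyme-only ones.

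The 20 genes differed in features that were not themselves used to choose them. The features were read from isoforms with an entry in any of the 6 libraries, so they were not independent of the edits. The 10 higher genes had 3′ UTRs of 1483 to 7731 nt (median 2956) and all 10 had UGCAUG in their exons, at a median of 3. The 10 lower genes had 3′ UTRs of 41 to 1829 nt (median 598.5), and 0 of the 10 had the hexamer. Over all 5220 genes tested the median 3′ UTR was 1608.5 nt and 3230 genes had UGCAUG. The GC content of the main isoform was 34.4% to 44.1% in the higher genes, 38.2% to 60.8% in the lower genes and 43.5% at the median of all genes.

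In most of the higher genes the sites lay in the 3′ UTR. Before scaling, PAWR had 209 and 244 sites in its 3′ UTR in RBFOX2-INSCRIBE and 45 and 113 in enzyme-only, and 4 and 3 against 3 and 1 in coding sequence. STMP1 had 69 and 70 against 11 and 19 in the 3′ UTR. GPM6B had 30 and 34 against 1 and 2 in the 3′ UTR and 5 and 4 against 2 and 2 in coding sequence. ZWILCH had more sites in coding sequence, at 54 and 56 against 16 and 23, than in its 3′ UTR, at 38 and 52 against 2 and 10. Within 50 nt of a UGCAUG, PPM1B had 22 of 129 and 21 of 143 sites in RBFOX2-INSCRIBE and 1 of 24 and 1 of 56 in enzyme-only. ZWILCH had 23 of 96 and 18 of 114 against 0 of 21 and 5 of 35. STMP1 had 20 of 73 and 25 of 74 against 3 of 11 and 6 of 20. SEH1L had 8 of 84 and 20 of 126 against 3 of 15 and 4 of 27. TSC22D2 had 17 of 75 and 17 of 97 against 2 of 11 and 1 of 28. For PAWR it was 26 of 213 and 29 of 248 against 1 of 48 and 10 of 114. For GPM6B it was 11 of 36 and 15 of 38 against 1 of 3 and 0 of 4. STARD4 had 6 of 77 and 7 of 59 against 0 of 7 and 1 of 19. KLHL11 had 3 of 42 and 5 of 37 against 0 of 2 and 1 of 6. NR2C2 had 3 of 72 and 4 of 86 in RBFOX2-INSCRIBE and 0 sites in enzyme-only. The shares of the groups overlapped in STMP1, SEH1L, TSC22D2, GPM6B and KLHL11. In RBFOX2-INSCRIBE most sites of each gene lay farther from the hexamer. The edit radius that the paper estimates is wider than 50 nt, and sites beyond that radius were not counted apart.

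The number of UGCAUG in a gene's exons was then set against the difference over all genes tested. Only isoforms with an entry in any of the 6 libraries were searched, so this number depends in part on the edits. The median log2 difference was -0.22 for the 1990 genes without the hexamer, 0.06 for the 1563 genes with 1, 0.20 for the 787 with 2 and 0.24 for the 880 with 3 or more. The order was the same against each control: from -0.29 to 0.35 against enzyme-only replicate 2 and from -0.19 to 0.11 against replicate 3. The groups did not overlap and were higher in 13.2% of genes without UGCAUG and in 31.7% of those with 3 or more, against 21.8% of all genes. When only sites more than 50 nt from any UGCAUG were counted, the medians were -0.18 and 0.22, so the gap between these gene classes was 0.40 in place of 0.46. The paper estimates an edit radius around UGCAUG that is wider than 50 nt. Sites beyond that radius were not counted apart, so whether an enzyme at the hexamer made the sites beyond 50 nt was not tested.

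Length and base composition moved with the hexamer number. By 3′ UTR length, the median log2 difference went from -0.52 under 500 nt (756 genes) to -0.21 from 500 to 1000 nt, 0.09 from 1000 to 2000 nt and 0.20 from 2000 to 4000 nt, and was 0.17 at 4000 nt or more. By GC content of the isoform it went from 0.31 under 40% (1514 genes) through 0.14, -0.09 and -0.31 to -0.61 at 55% or more (767 genes). Genes with a hexamer were higher than those without in each 3′ UTR length class, at -0.13 against -0.47 under 1000 nt, 0.21 against -0.08 from 1000 to 2000 nt and 0.22 against 0.07 above. They were also higher in each GC class, at 0.38 against 0.16 under 40% and at -0.31 against -0.64 at 50% or more. Length and GC content were those of the main isoform, while hexamers were counted over all listed isoforms. The classes therefore did not hold the searched sequence fixed.

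These gene classes also separated the controls from each other. Enzyme-only replicate 2 minus replicate 3 had a median log2 difference of 0.60 in genes of 55% GC or more and of -0.26 in genes under 40%, while RBFOX2-INSCRIBE replicate 1 minus replicate 2 had 0.21 and -0.01. Against enzyme-only replicate 3 the 55% class stood at -0.41 and the class under 40% at 0.14. With only sites preceded by A or U, the base context of APOBEC1, the medians were -0.66 and 0.23 for these classes and -0.19 and 0.26 for genes with 0 and with 3 or more UGCAUG. The part of gene depth in these orders was not tested, since depth is unknown.

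**Figure D2:**
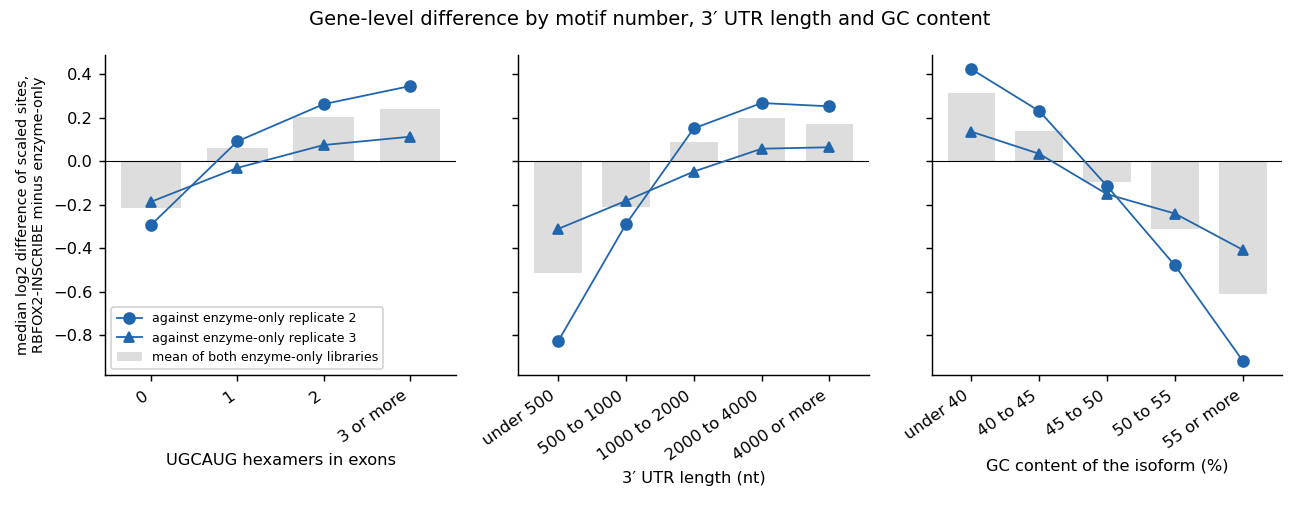
Median log2 difference of scaled sites per gene between RBFOX2-INSCRIBE and enzyme-only, for genes grouped by the number of UGCAUG in their exons, by 3′ UTR length and by GC content; bars use the mean of both controls and the 2 lines each control alone. Both lines climb with the hexamer number and fall with GC content, with a wider span against enzyme-only replicate 2.

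Functions were read from 27 lists of genes defined by symbol and from the lncRNA genes. No member of any list passed an adjusted p of 0.05 in limma, so the lists are given by their medians and by the members whose groups did not overlap, beside 21.8% higher and 20.4% lower over all genes. The 6 lists of abundant housekeeping products lay below the all-gene median of 0.02 under every alternative but 1. Cytosolic ribosomal proteins were the lowest: of 36 tested members 21 (58.3%) were lower without overlap and 1, RPS23, was higher, and the median log2 difference was -1.62. Set against enzyme-only replicate 2 the median was -2.65, and set against replicate 3 it was -0.56. The list held 0.390% and 0.244% of all sites in RBFOX2-INSCRIBE, 1.60% and 0.472% in enzyme-only and 0.706% and 0.817% in buffer-only, so most of its gap was set by enzyme-only replicate 2.

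The respiratory chain, whose complexes carry out oxidative phosphorylation, had 14 of 32 members lower without overlap (43.8%) and 0 higher, and a median of -0.99. It held 0.439% and 0.283% of sites against 0.798% and 0.450%. The proteasome, the cell's main protein-degrading machine, had 13 of 31 lower and 0 higher and a median of -0.85; PSMB7, a catalytic-core subunit, had 3.23 and 0.789 scaled sites against 38.9 and 8.38. Glycolysis had 6 of 10 members lower and 0 higher, with a median of -0.64, and tubulins and cytoplasmic actins had 7 of 12 lower and 0 higher, with a median of -0.49. Among the latter TUBB4B, a beta-tubulin, had 13.7 and 5.52 scaled sites against 51.9 and 23.05. Mitochondrial ribosomal proteins had 15 of 35 lower and 4 higher, and a median of -0.41, which came to lie above the all-gene median when only edit fractions of at least 0.02 were used. Before scaling they had more sites in RBFOX2-INSCRIBE, 883 and 835 against 667 and 709. In the other housekeeping lists the groups overlapped before scaling, as in cytosolic ribosomal proteins at 811 and 519 against 1449 and 756.

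These 6 lists had short 3′ UTRs, with medians of 158 nt for cytosolic ribosomal proteins, 387 nt for the proteasome, 347.5 nt for tubulins and actins, and 670 to 724.5 nt for the others. UGCAUG was present in 33.3% to 45.7% of their members, against 61.9% of all genes. Their order against enzyme-only replicate 3 was narrower, from -0.56 for cytosolic ribosomal proteins to -0.24 for mitochondrial ones.

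Translation factors and the core spliceosome, the machineries of initiation and of intron removal, were nearer to the rest. Translation factors had 15 of 44 members lower and 9 higher with a median of -0.21, and EIF4A1, the initiation helicase shown above, had 99.4 and 72.6 scaled sites against 267 and 128. The core spliceosome had 11 of 33 lower and 9 higher and a median of -0.25. With edit fractions of at least 0.02 both lists turned to the other side of all genes, at 0.61 for translation factors and 0.15 for the core spliceosome. LSM8 and LSM4 bind the same U6 snRNA, yet LSM8 had 52.5 and 56.8 scaled sites against 29.6 and 31.4 and LSM4 had 18.6 and 12.6 against 100 and 34.6; LSM8 had 6 UGCAUG and a 3′ UTR of 12036 nt, and LSM4 had 0 and 1231 nt.

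SR and hnRNP proteins had 8 of 33 higher and 11 lower and a median of -0.02. HNRNPF had 67.9 and 62.3 scaled sites against 31.5 and 50.3, and HNRNPAB had 23.4 and 41.0 against 122 and 53.4. Splicing regulators that act with or beside RBFOX2 had 4 of 14 higher and 2 lower, with a median of 0.11 (0.20 and 0.07 against the controls in turn), which became -0.31 with edit fractions of at least 0.02, where SR and hnRNP proteins were at 0.18. RNA helicases and RBM proteins had 6 of 56 higher and 12 lower and a median of -0.07, with RBM18 at 70.3 and 82.8 against 35.2 and 37.7 and RBM4 at 13.7 and 3.94 against 42.6 and 15.7.

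The lists with the highest medians were nuclear pore and transport receptors at 0.25, ubiquitin conjugation and removal at 0.24, kinesins and centromere proteins at 0.22, cholesterol synthesis at 0.19 and zinc finger proteins at 0.19. Ubiquitin enzymes had 21 of 61 members higher without overlap (34.4%) and 13 lower, with UBE2K at 150 and 158 scaled sites against 66.7 and 109. Transport receptors had 10 of 34 higher and 9 lower, with XPO4, an exportin, at 62.2 and 52.1 against 11.1 and 35.6; 88.2% of these genes had UGCAUG. Against enzyme-only replicate 3 alone the medians of these 5 lists were -0.10, -0.06, -0.07, 0.03 and -0.14, beside -0.06 for all genes, so their excess rested on enzyme-only replicate 2 except for cholesterol synthesis. With edit fractions of at least 0.02, where the median of all genes was 0.06, nuclear pore and transport receptors were at -0.03, ubiquitin enzymes at 0.05 and kinesins and centromere proteins at -0.23, all below it, and cholesterol synthesis was at 0.72. Kinesins and centromere proteins also lay below all genes with sites preceded by A or U (0.04 against 0.05). With own-strand sites only they were at 0.03 against 0.02 for all genes. Zinc finger proteins lay below all genes with a mean of at least 20 sites (-0.03 against 0.09). Small GTPases had 18 of 58 higher (31.0%) and 11 lower and a median of 0.11. RAN, the GTPase of nuclear transport, had 81.6 and 56.01 against 152 and 88.0.

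The other lists had medians between -0.07 and 0.13. They were chaperones, chromatin remodelling, aminoacyl-tRNA synthetases, membrane trafficking, solute carriers, TMEM proteins, DNA replication and repair, cyclins and CDCs, 14-3-3 proteins, RNA granule proteins and lncRNA genes. Solute carriers had 15 of 77 higher and 19 lower, TMEM proteins 15 of 61 and 13, and cyclins and CDCs 10 of 40 and 5, and each list held genes of both directions. Among the higher ones SLC25A46, a carrier-family protein of the outer mitochondrial membrane, had 54.9 and 54.4 scaled sites against 29.6 and 28.3, TMEM47 had 72.7 and 71.0 against 25.9 and 37.7, and CDC73, of the PAF1 elongation complex, had 141 and 140 against 68.5 and 108. Among the lower ones SLC25A11, a mitochondrial carrier, had 12.9 and 8.68 against 57.4 and 24.1, TMEM115 had 17.8 and 7.89 against 33.3 and 24.1, and CDC123 had 29.1 and 15.8 against 68.5 and 45.04.

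**Figure D3:**
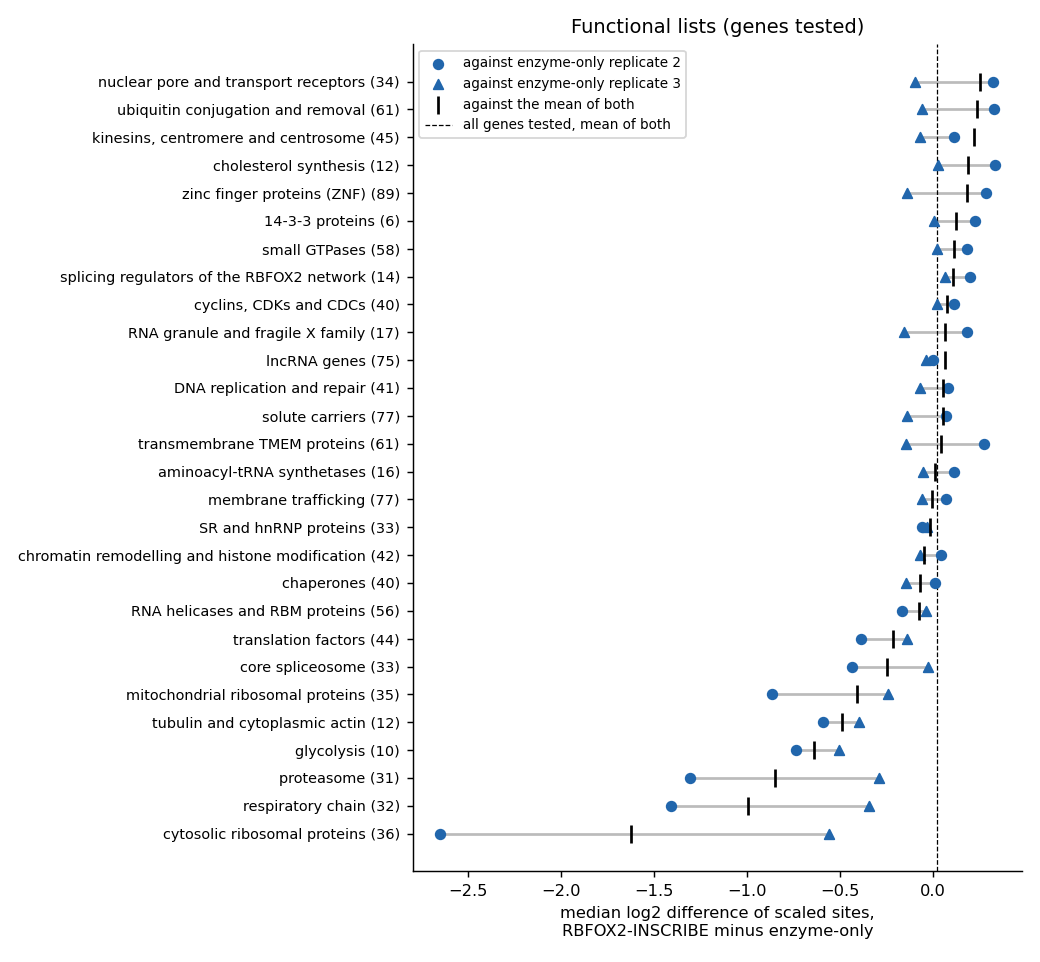
Median log2 difference of scaled sites per gene for 28 lists, with the number of genes tested in parentheses; circles are against enzyme-only replicate 2, triangles against replicate 3 and bars against the mean of both, and the dashed line is the median of all genes. Cytosolic ribosomal proteins lie lowest at -1.62, and most lists at the upper end lie within 0.3 of the dashed line.

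A larger share of edits lay in the 3′ UTR and a smaller share in coding sequence. The 3′ UTR held 58.7% and 59.7% of sites in RBFOX2-INSCRIBE, 49.2% and 53.2% in enzyme-only and 43.2% and 42.8% in buffer-only, which placed the RBFOX2-INSCRIBE libraries above all others. The difference from enzyme-only was 8.01 points (59.2% ± 0.68 against 51.2% ± 2.82, SD, n = 2; two-sided exact permutation p = 0.33, the smallest that 2 against 2 libraries can give). Coding sequence held 34.5% and 33.5% against 42.6% and 39.1%, and the 5′ UTR held 2.91% and 2.76% against 4.34% and 3.54%, neither with overlap. Retained introns held 1.67% and 1.78% against 1.67% and 1.80%, and the groups overlapped. With sites preceded by A or U only, the 3′ UTR difference was 7.54 points.

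As numbers of sites, the 3′ UTR held 2.84 times those of enzyme-only replicate 2 and 1.47 times those of replicate 3, coding sequence 1.89 and 1.15 times, and the 5′ UTR 1.54 and 1.06 times. Within the 3′ UTR the sites were spread alike in both groups. Of 10 equal bins, the one next to the stop codon held 13.3% and 13.3% of 3′ UTR sites in RBFOX2-INSCRIBE against 14.4% and 13.6%, and the one at the 3′ end held 7.20% and 7.01% against 7.31% and 6.72%.

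The same contrast was measured within genes, as the ratio of 3′ UTR sites to coding sites. Whether depth affects the number of sites alike in both regions was not tested. In 2038 genes with at least 5 sites on average in each region, the ratio of 3′ UTR to coding sites had a median log2 difference of 0.34, and it was higher in 69.3% of genes. With enzyme-only replicate 3 as the one control the median was 0.32, and with replicate 2 it was 0.35. No gene passed an adjusted p of 0.05 in limma (0%), 138 (6.77%) were higher and 24 (1.18%) lower at an unadjusted p under 0.05, and the groups did not overlap in 652 (32%) that were higher and 183 (8.98%) that were lower.

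DSP, the desmosomal plaque protein desmoplakin, had the smallest p. Its 3′ UTR held 25 and 31 sites in RBFOX2-INSCRIBE and 0 and 2 in enzyme-only, while its coding sequence held 24 and 21 against 11 and 31, a log2 difference in the ratio of 4.39 ± 0.57 (SE, adjusted p = 0.463 in limma). CAP2, an actin-binding cyclase-associated protein, had 26 and 14 sites against 1 and 3 in the 3′ UTR and 8 and 1 against 4 and 8 in coding sequence, and ZNF24, a zinc finger protein, had 13 and 11 against 3 and 2 and 11 and 7 against 15 and 22. Summed over the whole gene, ZNF24 had fewer scaled sites in RBFOX2-INSCRIBE, 21.0 and 15.8 against 38.9 and 30.4, so its regions moved apart. In the opposite direction WSB1, a ubiquitin-ligase adaptor, had 4 and 10 against 6 and 9 in the 3′ UTR and 7 and 15 against 2 and 2 in coding sequence, a log2 difference of -2.30 ± 0.52 (SE, adjusted p = 0.613 in limma).

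**Figure D4:**
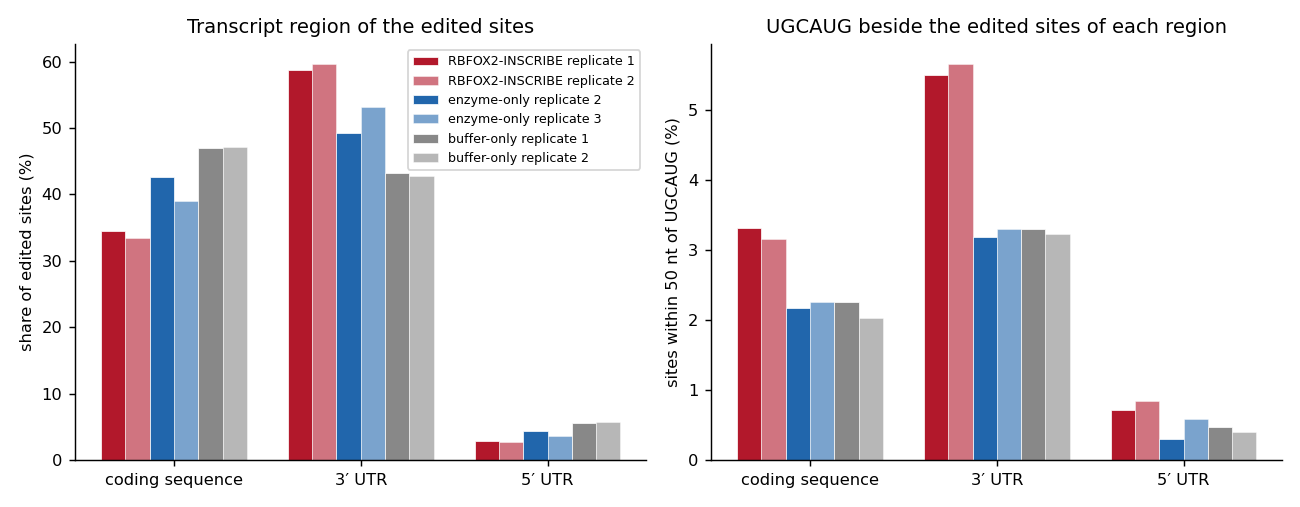
Left, the share of edited sites in coding sequence, 3′ UTR and 5′ UTR in each of the 6 libraries; right, the share of the sites of each region with UGCAUG within 50 nt. The 3′ UTR bars of RBFOX2-INSCRIBE (58.7% and 59.7% at left, 5.50% and 5.66% at right) exceed those of all other libraries.

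UGCAUG lay beside a larger share of sites in each of these regions. In the 3′ UTR it was within 50 nt of 5.50% and 5.66% of sites in RBFOX2-INSCRIBE, 3.19% and 3.29% in enzyme-only and 3.302% and 3.23% in buffer-only, a ratio of 1.72 between the first 2 groups. In coding sequence the shares were 3.32% and 3.16% against 2.16% and 2.25%, a ratio of 1.47. In the 5′ UTR, where only 42 and 48 against 11 and 32 sites lay near the hexamer, the ratio was 1.77, and it was 2.65 and 1.33 against the controls in turn. In none of these 3 regions did the groups overlap, and each exact permutation test gave p = 0.33. In isoforms with retained introns the share was 8.21% and 7.01% against 4.40% and 3.69%, and in lncRNAs 5.96% and 5.30% against 2.34% and 2.99%.

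The share near UGCAUG depended on the edit fraction in RBFOX2-INSCRIBE. It was 3.36% and 3.33% of sites with a fraction under 0.005, 5.10% and 5.08% from 0.005 to 0.02, 6.57% and 7.003% from 0.02 to 0.1, and 6.76% and 6.98% at 0.1 or more. In enzyme-only it stayed between 2.38% and 3.05% in all 4 classes, and in buffer-only between 1.88% and 2.75%. With fractions of at least 0.02 the ratio between RBFOX2-INSCRIBE and enzyme-only was 2.37 over all regions.

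**Figure D5:**
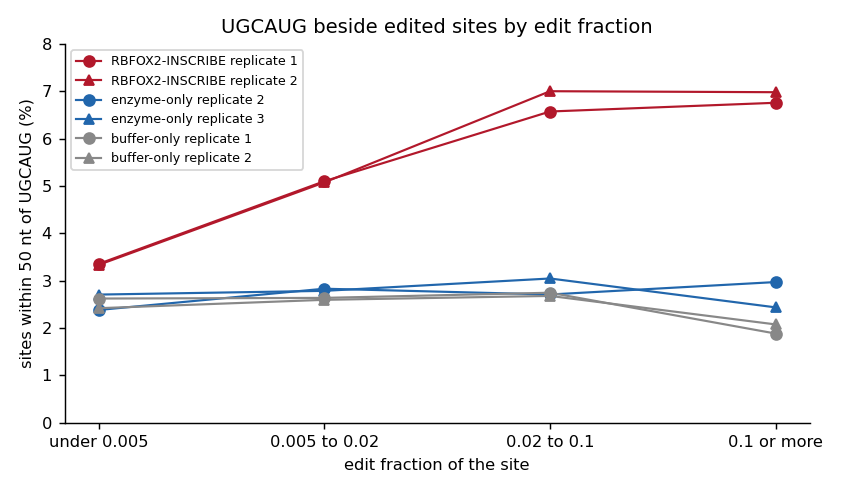
Share of edited sites with UGCAUG within 50 nt, by the edit fraction of the site, with 1 line per library. The RBFOX2-INSCRIBE lines climb from 3.36% and 3.33% to 6.76% and 6.98%, while the control lines stay at 3.05% or less.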

How the data were processed

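Long-read libraries of RBFOX2-INSCRIBE, enzyme-only and buffer-only cells (n = 2 each) were used. The authors made consensus reads with ccs 8.0.0, skera 1.2.0, lima 2.9.0 and refine 4.1.1, aligned them to hg38 with pbmm2 1.13.0, assigned them to isoforms with IsoQuant 3.3.0, called C-to-U edits, and removed dbSNP positions and edits present throughout. Each deposited value is a fraction, that of edited reads at an isoform position, without read numbers; the annotation version is not given in the sources used here, and 99.74% to 99.76% of entries matched GENCODE release 44. Depth is therefore unknown and no interval on a fraction was computed.

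Sites per gene were compared with limma 3.58.1 (R 4.3.3; log2 of scaled sites plus 0.5, trend and robust settings, Benjamini-Hochberg adjustment) because sites are not reads. The lone control in a test against 1 enzyme-only library has no spread of its own. On simulated data for the scaled gene comparison (5220 genes), 50% of genes changed 4-fold and 3% of those changed 2-fold were recovered, with 6 false calls. For the ratio of 3′ UTR to coding sites 2% and 0% were recovered among the 1855 genes whose simulated sites passed the minimum, against 2038 genes in the data. Shares were compared with two-sided exact permutation tests. The lengths and GC content of a gene are those of its isoform with the most entries. Its number of UGCAUG is counted over the exons of all its listed isoforms, those with an entry in any of the 6 libraries. UGCAUG was searched on the transcript strand only.

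Named genes were the 10 per direction described in the report, RBFOX2, the gene with the smallest p and no overlap per list and direction, and 3 genes per direction of the region test. Not all of them are printed. The members and lists were chosen with earlier results of these data known. Other tools were Python 3.11.15, pandas 2.3.3, scipy 1.17.1 and matplotlib 3.10.9. Alternatives covered scaling, pseudocount, minimum sites, strand, edit fraction, base context, fit and left-out libraries.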

Additional observations from a re-analysis of the deposited data

Results flagged for a closer look

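NR2C2 had 74.1 and 54.0 scaled sites in the buffer-only libraries, which received no enzyme, and 0 in both enzyme-only libraries; the buffer-only values lay beside those of RBFOX2-INSCRIBE. KLHL11 had 23.3 and 6.47 scaled sites in buffer-only, where the lower value exceeded both enzyme-only values of 3.70 and 6.29. The buffer-only libraries entered the fits only in the alternative with all 3 groups, and for neither gene was buffer-only tested against another group.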

How the results depend on the processing

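The count of genes past an adjusted p of 0.05 after scaling was 0 with median-of-ratios scaling, a pseudocount of 0.1, a mean of at least 20 sites, own-strand sites, every entry counted and plain eBayes, and 1 with a pseudocount of 1, with no minimum, with edit fractions of at least 0.02 and with all 3 groups in the fit. Leaving out 1 library gave 0 to 487 genes (42 without enzyme-only replicate 2, 487 without replicate 3). Without scaling it gave 1 to 2469 in place of 36. With a replicate block from the numbers in the labels' replicate field, 164 genes passed (76 higher, 88 lower). Deviations of same-numbered libraries had r = 0.11 across 5220 genes in only 2 pairs, so the numbers are not taken to pair the libraries. Of 73 named genes 4 changed direction under some alternative. All 4 did so with fractions of at least 0.02, where 30 others kept their direction and the rest had too few sites. ZNF770 was at -0.56 with fractions of at least 0.02. WSB1, near 0 over the whole gene, was at -0.065 with every entry, -0.54 with fractions of at least 0.02, -0.12 with sites preceded by A or U, -0.18 without enzyme-only replicate 2 and from -0.33 to 0.37 when each library was left out in turn. SPAG9, also near 0, was at 0.019 with median-of-ratios scaling, 0.027 with every entry, 0.15 with fractions of at least 0.02, 0.020 without enzyme-only replicate 2 and from -0.10 to 0.10 when each library was left out in turn. ZNF24 was at 1.04 with fractions of at least 0.02. The causes were not tested. The region shares, the UGCAUG ratios, the 3′ UTR to coding ratio and the order by UGCAUG number kept their direction under every alternative run, and the gap between genes with 3 or more and with 0 UGCAUG ranged from 0.31 to 0.65 when 1 library was left out. Between 10 and 15 lists lay above the median of all genes. Restriction to A or U context and to sites over 50 nt from UGCAUG, and fractions of at least 0.02 for the 3′ UTR to coding ratio, were chosen after seeing the data.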
